A study of Rattus norvegicus with 18 samples.

Results

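miR-122 is the classic microRNA (miRNA) of the hepatocyte, and both strands of its precursor were counted here: the main product miR-122-5p (rno-miR-122-5p in full) and the minor one miR-122-3p (rno-miR-122-3p). The pair was chosen by name, as 2 of the 401 mature miRNAs in the deposited table, and both were among the 112 miRNAs with enough counts to be tested. They were followed through 18 small RNA libraries of rat liver, in 3 groups of 6, from animals aged 8 weeks. One group was lean, with no agent named. The others were obese Zucker diabetic fatty (ZDF) rats, on vehicle in one group and on colesevelam in the other. Colesevelam is a polymer taken by mouth that holds bile acids back in the intestine. All labels give the strain as ZDF-Leprfa/Crl, the lean group included, so lean and obese are known from the group names and the phenotype label alone. The fa mutation of ZDF rats disables the leptin receptor, and the rats grow fat and diabetic. The study's stated question was how colesevelam changes liver miRNAs of vehicle-treated ZDF rats, and the lean rats let each obese group be set against lean liver.

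A miRNA precursor is cut into a short duplex, and usually one strand is loaded into an Argonaute protein and kept, while the other is mostly degraded. The loaded strand pairs with messenger RNAs chiefly through its seed, bases 2 to 8, and lowers their translation and stability. In hepatocytes miR-122-5p is usually among the most abundant miRNAs of all; it takes part in the control of cholesterol and fatty acid metabolism, and its loss in mice lowers blood cholesterol and leads to fatty liver. Since hepatocytes make almost all of it, it is also used as a marker of that cell type.

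The mature sequences are shown because the comparison of the arms rests on telling them apart. They are those of RefSeq, and the deposited table lists the same letters for both arms, written as DNA. Capitals mark the seed.
miR-122-5p: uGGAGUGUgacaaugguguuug
miR-122-3p: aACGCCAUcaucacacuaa
The hairpin they come from follows, with both arms in capitals, to show that they lie on opposite sides of 1 loop.
Mir122 hairpin: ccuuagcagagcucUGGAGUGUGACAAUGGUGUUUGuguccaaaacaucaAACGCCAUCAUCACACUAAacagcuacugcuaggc

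The arms have 22 and 19 bases. They are alike in base composition, with a GC content of 45.5% for miR-122-5p and 42.1% for miR-122-3p, against a median of 45.5% over the tested miRNAs (range 27.3% to 72.7%). None of the other miRNAs of the table shares either seed, and none of the other mature rat miRNAs of the RefSeq table does (693 names). In the RefSeq assembly GRCr8 the hairpin lies at chr18:61028817-61028901 on the plus strand, within a transcribed pseudogene (LOC134482951). The nearest protein-coding genes are Nedd4l, 31993 bp before it, and Alpk2, 16816 bp after it. A second miRNA gene, Mir3591, is annotated on the minus strand over the same bases. Its mature miRNA, miR-3591, lies opposite miR-122-5p and is not a row of the deposited table, and how the authors' counting used strand is not given in the sources used here. The deposited table places miR-122-5p at positions 59956825 to 59956846 and miR-122-3p at 59956861 to 59956879 of chromosome 18, plus strand; its build is not named in those sources, and the positions differ from GRCr8.

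The libraries held 32936 to 881452 miRNA counts, and the obese groups lay 4.21-fold (vehicle) and 4.15-fold (colesevelam) below lean on the log2 mean (exact two-sided permutation p = 0.00433 for each, adjusted p = 0.0195 over 9 tests). Depth therefore differed between lean and obese libraries, but not detectably between the obese groups (exact permutation p = 0.948). miR-122-5p was counted 1235 to 18566 times in a library and miR-122-3p 54 to 2921 times. Counting error alone thus came to at most 2.85% of a value for miR-122-5p, and to between 1.85% and 13.6% for miR-122-3p. Whether libraries are separate animals is not labelled, and p-values therefore speak of library-to-library spread, some of which may be technical. 5 pairs of libraries share the middle number of their label, whose meaning is not given.

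Over all libraries miR-122-5p made up 4.49% of miRNA counts on average (SD 2.00, n = 18). Its rank among the miRNAs of a library ran from 2 to 13, with a median of 6. miR-192-5p, another liver-rich miRNA, stood at 23.1% (SD 6.06). miR-122-3p made up 0.264% (SD 0.0931), at ranks 22 to 44. Levels below are CPM, counts scaled to a total of 1000000 per library after correction by TMM (trimmed mean of M values) in edgeR, so they are relative to the other miRNAs of the library.

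In lean liver the main arm was uneven and the minor arm less so. miR-122-5p stood at 60936, 17865, 81762, 28708, 60304 and 21673 CPM in lean libraries 1 to 6, or 45208 ± 26020 (mean ± SD, n = 6). Libraries 1, 3 and 5 were high and libraries 2, 4 and 6 low, with nothing between 28708 and 60304. miR-122-3p stood at 2512, 3839, 2462, 3825, 2323 and 5047 CPM in the same order, or 3335 ± 1085. Here the order was turned round: the 3 libraries low in the main arm were the 3 highest in the minor arm.

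In vehicle-treated obese liver miR-122-5p stood at 43515, 43304, 47537, 24599, 21687 and 49567 CPM in libraries 1 to 6 (38368 ± 12068), all inside the lean range. Vehicle libraries 4 and 5 lay apart below the other 4. miR-122-3p was even across the group, at 3067, 2721, 2804, 2191, 3024 and 2497 CPM (2717 ± 332). Its coefficient of variation was 12.2%, against 32.5% in lean and 32.7% in colesevelam libraries.

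In colesevelam-treated obese liver miR-122-5p stood at 49952, 52827, 33336, 58899, 35472 and 63629 CPM (49019 ± 12296), again inside the lean range. miR-122-3p stood at 2991, 1821, 1254, 1445, 1714 and 1951 CPM (1863 ± 608). Colesevelam library 1 was as high as the vehicle libraries, and the other 5 lay below every vehicle and every lean library. By group means the order was colesevelam, lean, vehicle for the main arm and lean, vehicle, colesevelam for the minor arm. Among neighbours in these orders no step passed the edgeR test described next.

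**Figure D1:**
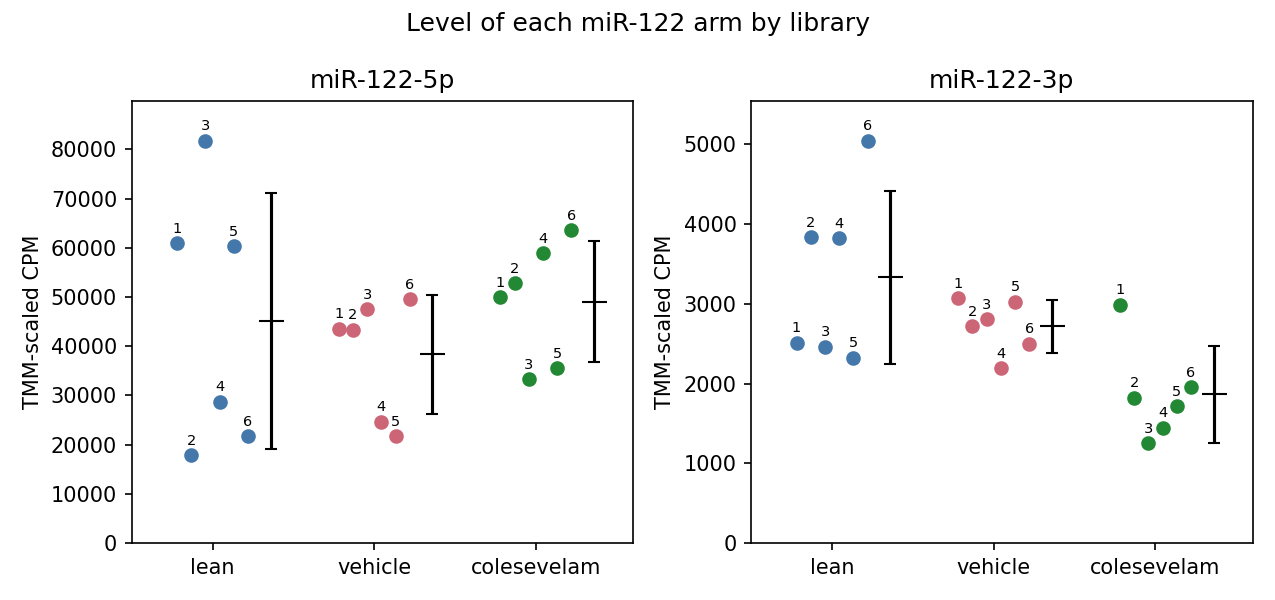
TMM-scaled CPM (linear axes from 0) of miR-122-5p on the left and miR-122-3p on the right, 1 point per library with its number, beside the mean ± SD of each group of 6. Lean libraries 2, 4 and 6 are low on the left and high on the right, and 5 of the 6 colesevelam libraries lie below every other library on the right.

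Each comparison was tested by edgeR's quasi-likelihood test in one fit of all 18 libraries and 112 miRNAs, with Benjamini-Hochberg adjustment over all of them and a threshold of 0.05. Between vehicle and lean neither arm was called. The log2 fold change was −0.24 ± 0.32 (SE) for miR-122-5p (edgeR adjusted p = 0.789) and −0.30 ± 0.22 for miR-122-3p (edgeR adjusted p = 0.498). Over all miRNAs 6.25% were called in this comparison. The approximate 95% interval (1.96 SE each way) ran from −0.87 to 0.40 for miR-122-5p and from −0.73 to 0.13 for miR-122-3p. Changes within these intervals were not excluded. With the log2 miRNA total as a covariate, which differs between these groups, miR-122-5p was at −1.24 and called (edgeR adjusted p = 0.0465).

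Between colesevelam and vehicle, where 10.7% of all miRNAs were called, neither arm was called either, and their estimates had opposite signs. miR-122-5p was at 0.35 ± 0.32 (edgeR adjusted p = 0.619; interval −0.28 to 0.99). miR-122-3p was at −0.55 ± 0.22 (edgeR adjusted p = 0.136; unadjusted 0.0219, in a comparison where 21.4% of miRNAs had an unadjusted p under 0.05). Without colesevelam library 1 miR-122-3p was at −0.69 and passed (edgeR adjusted p = 0.0476). In the authors' deposited table the same comparison gives a log2 fold change of 0.05 for miR-122-5p and −1.03 for miR-122-3p, the second with an unadjusted p of 0.0228 and an adjusted p of 0.159.

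Between colesevelam and lean miR-122-3p was lower, 1.80-fold, with −0.85 ± 0.22 on the log2 scale (edgeR adjusted p = 0.00883; interval −1.28 to −0.41). It was 1 of 11 miRNAs called lower, which is 9.82% of those tested. Colesevelam library 1, at 2991 CPM, overlapped the lean libraries, and the other 5 lay below them all. miR-122-5p was at 0.12 ± 0.32 (edgeR adjusted p = 0.825; interval −0.52 to 0.75). The fall of miR-122-3p kept its call whichever library was left out (edgeR adjusted p = 0.00337 to 0.0274), and missed the threshold with the log2 miRNA total as a covariate (−0.80, edgeR adjusted p = 0.0927).

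**Figure D2:**
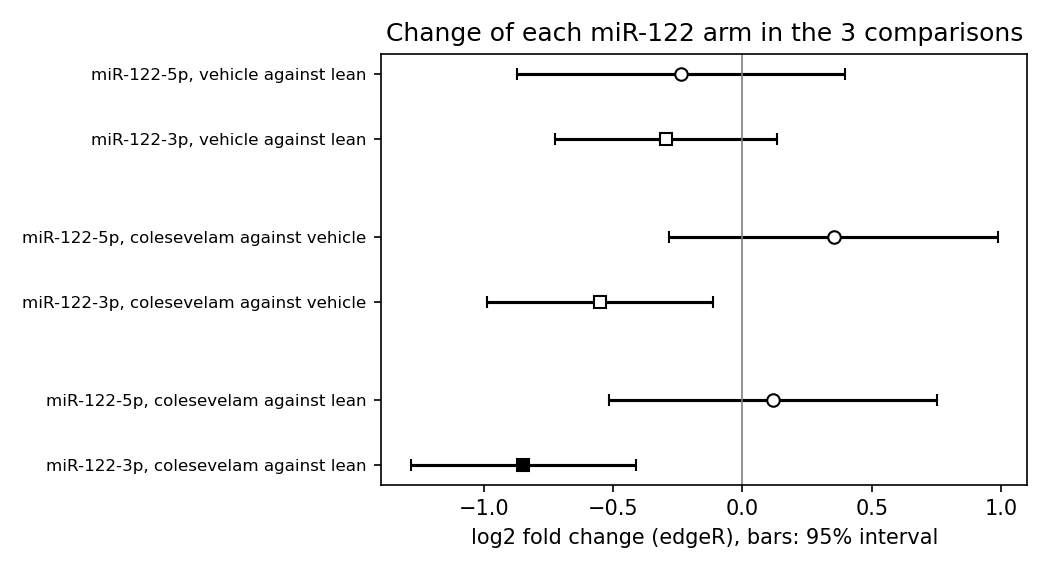
Log2 fold change of each arm in the 3 comparisons (edgeR, horizontal axis), with bars for the approximate 95% interval; circles are miR-122-5p, squares miR-122-3p, and a filled mark is past the threshold. The only filled mark is miR-122-3p in colesevelam against lean, at −0.85.

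The changes against lean were of similar size under 4 scalings and far larger with the authors' own size factors. For miR-122-3p in colesevelam against lean the log2 fold change was −0.85 with TMM and −0.89 with edgeR's relative log expression factors. It was −0.73 with upper-quartile factors and −0.87 with library totals only. The authors' own size factors do not follow the miRNA total, which was lower in both obese groups, so values scaled by them include that difference. With these factors both arms were lower in obese than in lean liver. In the edgeR fit miR-122-5p was then at −2.38 in vehicle and −2.33 in colesevelam against lean, and miR-122-3p at −2.65 and −3.68, all past the threshold. The median of all 112 miRNAs in these fits was −2.38 for vehicle and −2.76 for colesevelam against lean. Set against it, miR-122-5p stood at the median in vehicle libraries and above it in colesevelam libraries (−2.33 against −2.76). miR-122-3p lay below the median in both obese groups.

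The ratio of the arms within a library is free of scaling, and it tests whether the arms changed unequally. Given as miR-122-3p counts per 100 counts of miR-122-5p, it was 4.12, 21.5, 3.01, 13.3, 3.85 and 23.3 in lean libraries 1 to 6. Vehicle libraries held 7.05, 6.28, 5.90, 8.91, 13.9 and 5.04, and colesevelam libraries 5.99, 3.45, 3.76, 2.45, 4.83 and 3.07. All vehicle libraries were above 5, and all colesevelam libraries but library 1 were below 5. Library 1, at 5.99, lay above vehicle libraries 3 and 6, so the groups overlapped.

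The ratio was 1.96-fold lower with colesevelam than with vehicle. The mean log2 ratio, with 0.5 added to each count, was −4.73 ± 0.46 (SD, n = 6) against −3.75 ± 0.52, a difference of −0.97 ± 0.29 (SE), with an exact two-sided permutation p of 0.00649 and an adjusted p of 0.0195 over 9 tests. Neither arm was called alone. The call remained whichever library was left out (difference −1.11 to −0.79, exact permutation p = 0.00433 to 0.0130, adjusted p = 0.0130 to 0.0390). For these, the other p-values of the family were kept from all libraries. That family includes the miRNA totals against lean, both past the threshold. Without them the adjusted p of the ratio would be larger, so the call rests in part on their place in the family. With libraries that share a label number summed, which leaves 4 against 5, the difference was −0.88 and the call was lost (exact permutation p = 0.0317, adjusted p = 0.0952). Title numbers do not pair the libraries, and a replicate block built on them gave the smallest p that 6 pairs allow (exact sign-flip permutation p = 0.0312, adjusted p = 0.0938). That setting could not pass the threshold after adjustment, so it does not decide whether the call holds. So the unequal change of the arms passed the test with 6 separate libraries a group. It did not pass with libraries of one label number summed. There 4 against 5 leaves fewer splits, so p moves in coarser steps and its smallest value is larger. The lost call therefore does not show that the change was absent.

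Against lean the ratio was not called for either obese group. The difference was −0.16 ± 0.59 (SE) for vehicle (exact permutation p = 0.788, adjusted p = 0.948) and −1.13 ± 0.58 for colesevelam (exact permutation p = 0.104, adjusted p = 0.234). With the log2 miRNA total as a covariate, an alternative added after the data were seen and run with no test, the differences were 1.24 and 0.00492, so the direction turned for vehicle and the difference was near 0 for colesevelam. The lean libraries spread over 7.73-fold, against 2.77-fold for vehicle and 2.44-fold for colesevelam, and colesevelam libraries fell beside the lean libraries 1, 3 and 5. Unequal change of the arms between colesevelam and lean was therefore not shown, although the minor arm was called and the main arm was not.

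**Figure D3:**
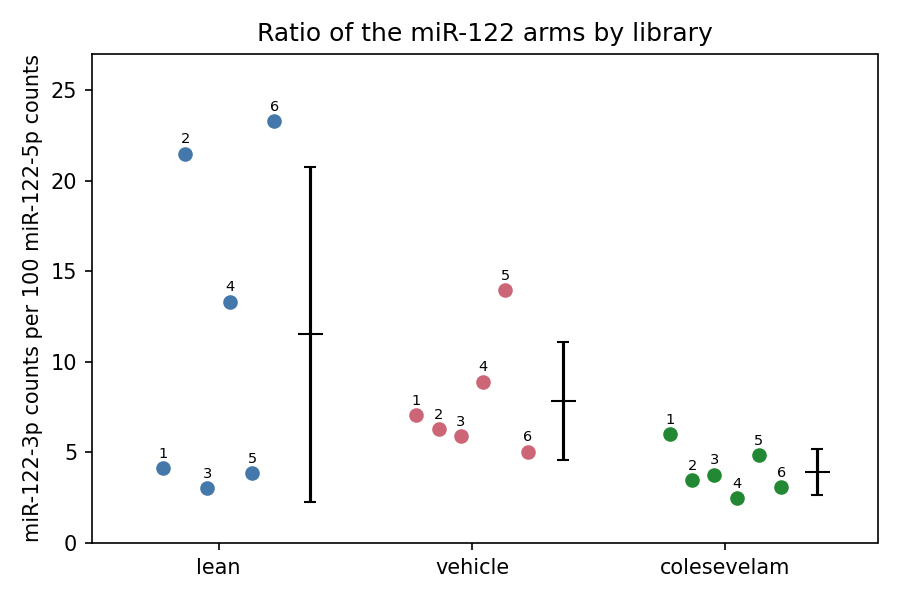
miR-122-3p counts per 100 miR-122-5p counts in each library (vertical axis, linear from 0), with the mean ± SD of each group of 6. Lean libraries split into 3.01 to 4.12 and 13.3 to 23.3, vehicle libraries lie between 5.04 and 13.9, and colesevelam libraries between 2.45 and 5.99.

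The summed share of both arms is the part of the miRNA counts they make up together. Most of it is miR-122-5p (3.46% of a summed 3.76% over all libraries). This share passed no test between groups. Lean libraries held 5.04% ± 3.03, vehicle libraries 4.33% ± 1.52 and colesevelam libraries 4.90% ± 1.26 (SD, n = 6 each). The smallest exact permutation p over the 3 comparisons was 0.474 (adjusted p = 0.853), for colesevelam against vehicle, where the difference on the log2 scale was 0.22 ± 0.29 (SE). In bulk liver fewer hepatocytes and less miR-122 per hepatocyte cannot be told apart.

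Libraries with the same label number could differ widely in the arm ratio. Lean libraries 1 and 2 carry 1 number and stood at 4.12 and 21.5, and lean libraries 4 and 5 carry another and stood at 13.3 and 3.85. Vehicle libraries 3 and 4 stood at 5.90 and 8.91, colesevelam libraries 2 and 3 at 3.45 and 3.76, and colesevelam libraries 4 and 5 at 2.45 and 4.83.

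Over the 18 libraries with group means removed, the main arm moved with a large part of the other miRNAs. Within single groups of 6 this passed no test after adjustment. After each group's mean was removed, 40.8% of the variance of the other 110 tested miRNAs lay on 1 axis, the first principal component of log2 CPM. The correlation of miR-122-5p with a library's score on it, over 18 libraries after the group means were removed, was −0.885, the 7th most negative of the 112. That value includes the lean libraries, which form separate sets on the axis. Within vehicle libraries r for miR-122-5p was −0.868 (exact permutation p = 0.0861, adjusted over 9 relations 0.155). It was −0.1 without the 2 libraries farthest from the median. Within colesevelam libraries r for miR-122-5p was −0.95 (exact permutation p = 0.0222, adjusted 0.0667), and −0.703 without 2. For miR-122-3p the correlation over the 18 libraries was 0.258, which joins opposite signs. In lean, libraries 2, 4 and 6 were the highest in miR-122-3p. Within vehicle libraries r for miR-122-3p was −0.487 and rho −0.486 (exact permutation p = 0.336 and 0.356; adjusted over 9 relations 0.378 and 0.400; r −0.306 without 2), and within colesevelam libraries r was −0.329 and rho −0.371 (exact permutation p = 0.567 and 0.497; adjusted 0.567 and 0.497; r 0.491 without 2). Lean libraries 2, 4 and 6 scored 0.76, 0.75 and 1.60 SD, and lean libraries 1, 3 and 5 between −1.07 and −0.98; since these are separate sets, no correlation is given within lean. Within vehicle libraries the score and the log2 arm ratio had Pearson's r of 0.690 and Spearman's rho of 0.600 (exact permutation p = 0.158 and 0.242; adjusted over 9 relations 0.237 and 0.311), and r was −0.135 without the 2 libraries farthest from the median. Within colesevelam libraries r was 0.483 and rho 0.600 (exact permutation p = 0.328 and 0.242; adjusted 0.378 and 0.311), and r was 0.592 without 2.

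Library depth was set against the arms as well. The deepest lean libraries, 2 and 4, held 881452 and 458609 miRNA counts and stood at 21.5 and 13.3 in the arm ratio, while library 6, at 171319 counts, stood at 23.3. Within lean libraries Pearson's r of the log2 ratio with the log2 miRNA total was 0.628 and Spearman's rho 0.314 (exact permutation p = 0.239 and 0.564; adjusted over 6 relations 0.287 and 0.677). Without libraries 2 and 4, the farthest from the median total, r was 0.142, so it rested on them. Within vehicle libraries Pearson's r of the log2 ratio with the log2 miRNA total was 0.701 and Spearman's rho 0.371 (exact permutation p = 0.208 and 0.497; adjusted over 6 relations 0.287 and 0.677; r 0.753 without 2). Within colesevelam libraries r was 0.120 and rho 0.0857 (exact permutation p = 0.814 and 0.919; adjusted 0.814 and 0.919; r 0.910 without 2). For the level of miR-122-5p r was −0.689 in lean (exact permutation p = 0.153, rho −0.543; r −0.0744 without libraries 2 and 4), −0.675 in vehicle (exact permutation p = 0.181, rho −0.429; r −0.871 without 2) and −0.712 in colesevelam libraries (exact permutation p = 0.133, rho −0.429; r −0.752 without 2), with an adjusted p of 0.287 for each r. The part of depth and of the axis in the spread of the arms was not tested further.

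**Figure D4:**
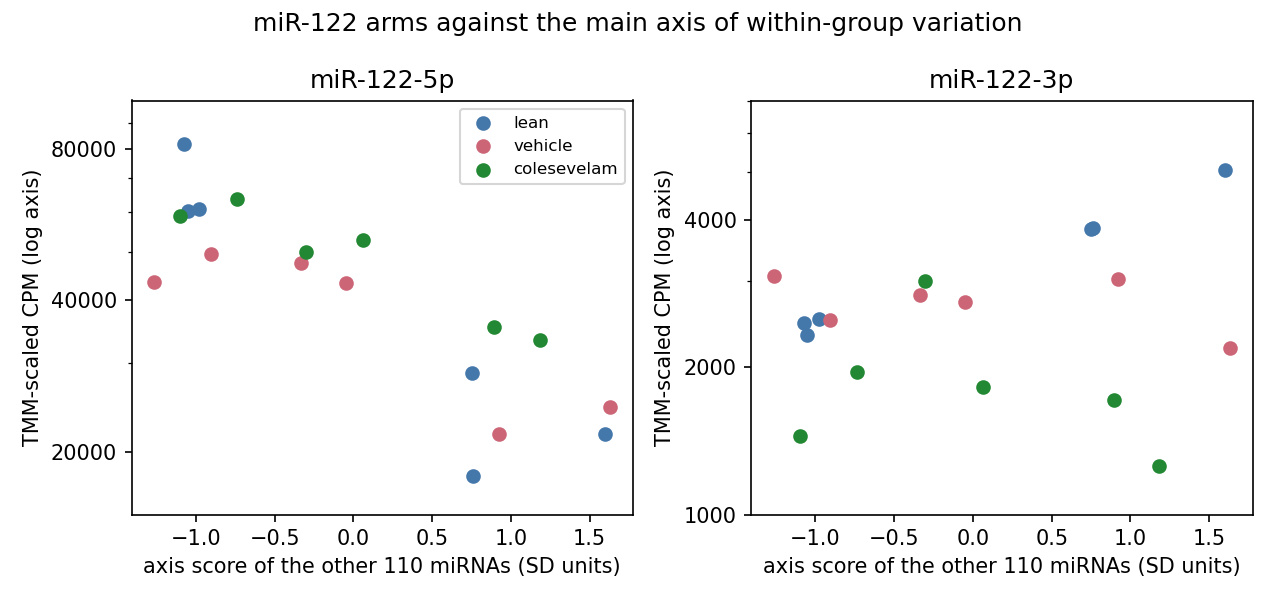
TMM-scaled CPM (log axis) of miR-122-5p on the left and miR-122-3p on the right, against each library's score on the main axis of within-group variation of the other 110 tested miRNAs (in SD). In each group the libraries scoring above 0.5 are the lowest in miR-122-5p, and in lean they are the highest in miR-122-3p.

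The miRNAs most like each arm were found by the correlation of log2 CPM over the 18 libraries after group means were removed, as a description of libraries that share this axis. For miR-122-5p they were let-7b-5p (r = 0.921), miR-125a-5p (0.867) and let-7e-5p (0.863). At the other end stood miR-194-5p, another liver-rich miRNA (−0.867), miR-30e-5p (−0.859) and the leukocyte miRNA miR-142-5p (−0.858). For miR-122-3p they were miR-23a-3p (0.597), miR-19b-3p (0.563) and miR-145-5p (0.492). The arms themselves correlated at −0.416, so each was far down the other's order of likeness (74th and 105th of 111). In lean the 3 libraries low in the main arm were the 3 highest in the minor arm, and the obese groups did not all follow that order. Vehicle library 4 and colesevelam library 3 were low in both arms, at 24599 and 2191 CPM and at 33336 and 1254 CPM.

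13 precursors had both arms among the tested miRNAs, and miR-122 can be placed among them. Its minor arm came to 8.77% of its main arm in counts summed over all libraries, which gives deep libraries more weight. Per library the median was 5.47% and the mean 7.76%. The spread of its log2 ratio between lean libraries (SD 1.34) was the widest of the 13, whose median was 0.714, but in vehicle and colesevelam libraries it ranked 6th and 10th. Its shift with colesevelam against vehicle was second lowest, after miR-28 (−1.20). 9 of the 13 minor arms shifted down relative to their major arm in that comparison, and their median shift was −0.455. The shift of miR-122 thus lay on the side that most precursors took.

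**Figure D5:**
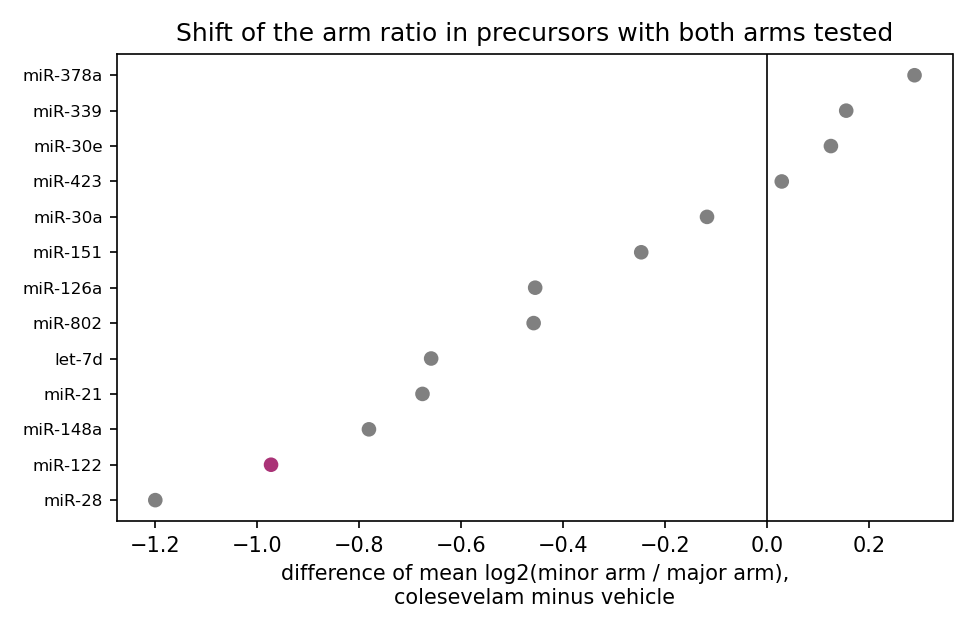
Difference of the mean log2 ratio of minor to major arm, colesevelam minus vehicle, for the 13 precursors with both arms tested; the coloured point is miR-122, at −0.97. The points run from −1.20 to 0.29, and 9 lie below 0.

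The other hepatocyte-enriched miRNAs of the list used here give the setting. Of its 11 names 10 were in the table and 9 were tested, both arms of miR-122 included. None was called between vehicle and lean, where the median log2 fold change was −0.30 against 0.01 over all tested miRNAs. Between colesevelam and vehicle 1 of the 9 was lower, where 3.57% of all tested miRNAs were: the minor arm miR-148a-5p (−0.66 ± 0.21, edgeR adjusted p = 0.0411). The median was −0.01 against −0.01 over all. Between colesevelam and lean 2 of the 9 were lower, where 9.82% of all were: miR-122-3p and miR-101a-3p (−0.85 ± 0.29, edgeR adjusted p = 0.0380). The median was −0.30 against −0.08 over all. In that comparison the log2 fold change was −0.10 ± 0.26 for miR-192-5p, −0.02 ± 0.19 for miR-194-5p, −0.30 ± 0.29 for miR-148a-3p and −0.20 ± 0.31 for miR-802-5p, none of them called. As a summed share of miRNA counts the list came to between 33.9% and 48.0% in lean libraries, 23.8% and 36.7% with vehicle, and 28.2% and 41.5% with colesevelam.

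Markers of other liver cells moved beside the fall of miR-122-3p in colesevelam against lean, a comparison in which 9.82% of all tested miRNAs were called lower. Both tested members of the leukocyte list (of 5 listed), miR-142-5p and miR-150-5p, were lower there. One of them was lower in each other comparison as well. This was miR-150-5p between colesevelam and vehicle (−1.27 ± 0.38, edgeR adjusted p = 0.0340; 3.57% of all were lower), the comparison in which the arm ratio was called, and miR-142-5p between vehicle and lean (−1.27 ± 0.36, edgeR adjusted p = 0.0328; 2.68% of all were lower). The list's summed share was 0.167% to 0.325% of counts in lean and 0.0794% to 0.125% in colesevelam libraries, and 0.0940% to 0.183% in vehicle libraries. Both tested members of the bile duct and other epithelium list (of 6), miR-200b-3p and miR-375-3p, were lower in colesevelam against lean as well, and miR-200b-3p also in vehicle against lean (−1.94 ± 0.35, edgeR adjusted p = 0.000653). Their list had shares of 0.0724% to 0.225% in lean, 0.0452% to 0.119% in vehicle and 0.0610% to 0.103% in colesevelam libraries. In none of the 3 comparisons was a tested member called in the stellate and stromal list (3 of 5 tested; 3.64% to 4.44% in lean, 3.57% to 5.24% in vehicle, 3.22% to 5.06% in colesevelam), the endothelial list (both tested; 0.614% to 1.22%, 0.406% to 0.813% and 0.497% to 1.02%) or the erythroid list (1 of 4 tested; 0.0203% to 0.0508%, 0.0126% to 0.0353% and 0.00489% to 0.0366%). No marker found in the table was at 0 in all libraries. The part of these markers in the changes of miR-122-3p and of the arm ratio was not tested.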

How the data were processed

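Unscaled estimated counts of mature miRNAs were deposited, 1 column per library; 297 of its 7218 values are not whole, none of them for miR-122. Per the labels' protocols, frozen liver was extracted with a Norgen total RNA kit and libraries were built with an Illumina TruSeq RNA kit. The tools, per the submitters' processing notes, included Bowtie 1.1.2 and DESeq2 1.18.1; how reads were trimmed, annotated and counted, and the build, is not given in the sources used here. The authors' DESeq2 comparisons are in the same table, per the file headers, as log2 fold changes, p-values, marks of significance and mean scaled counts, from which their size factors were recovered.

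Counts were rounded. filterByExpr by group (minimum count 10, minimum total 15) kept 112 of 401 rows with 99.5% of counts, tested with edgeR 4.0.16 (TMM, robust quasi-likelihood) in R 4.3.3, and the script was checked on simulated data. Arm ratio, share and miRNA total were compared by exact permutation (scipy 1.17.1), where the smallest p for 6 against 6 is 0.00216. DESeq2 1.42.0 and limma 3.58.1 were alternatives. Intervals on counts cover counting error only. Members, lists and tests were chosen with earlier results of these data known. Named were both arms, the 3 miRNAs most like each and 4 listed hepatocyte miRNAs; miR-194-5p, miR-30e-5p and miR-142-5p as least like, miR-28, miR-148a-5p and miR-101a-3p were named after their values were seen. The title numbers do not pair libraries: deviations of same-numbered libraries correlated at −0.586 to 0.564.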

Additional observations from a re-analysis of the deposited data

Results flagged for a closer look

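Among 15 sets of 6 libraries looked at (both arms, their ratio, their share and the miRNA total, in 3 groups), 1 library lay apart from its group. Vehicle library 5 held 147313 miRNA counts, and its gap to the next vehicle library was 0.692 of the group's range, above Dixon's critical value for a set of that size. Chance alone flags about 1 in 20 such sets. The same library had the highest arm ratio of its group, at 13.9 counts of miR-122-3p per 100 of miR-122-5p. Without it the log2 ratio was still lower with colesevelam than with vehicle, by a difference of −0.79 (exact permutation p = 0.0130, adjusted p = 0.0390).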

How the results depend on the processing

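Depth limits miR-122-3p more than miR-122-5p, and a scaling to the other miRNAs shows no change of the whole pool. With the authors' size factors 110 miRNAs were called for vehicle and 109 for colesevelam against lean and 2 for colesevelam against vehicle; against lean miR-122-5p was at −2.38 in vehicle and −2.335 in colesevelam libraries, and miR-122-3p at −2.65 in vehicle libraries. With the log2 miRNA total as a covariate miR-122-5p was at −1.24 for vehicle and −0.865 for colesevelam against lean (edgeR adjusted p = 0.0465 and 0.0942), miR-122-3p at −0.796 for colesevelam against lean (adjusted p = 0.0927), and the log2 arm ratio, in a value added after seeing the data, at 1.24 and 0.00492. With the axis of the other miRNAs as a covariate, also added after seeing the data, 14 miRNAs were called for vehicle and 46 for colesevelam against lean; the score averages 0 in each group. For colesevelam against vehicle 6 miRNAs were called with upper-quartile factors, and 7 each with no filter, with libraries of one label number summed and with a replicate block. miR-122-5p was at −0.0006144 for colesevelam against lean with library totals only, and the share of both arms at −0.142 percentage points with percent shares. With libraries of one label number summed the arm ratio for colesevelam against vehicle was −0.879. A replicate block paired libraries by title number, although these numbers do not pair them. There the ratio was −0.973 and lower in 6 of 6 pairs (exact sign-flip permutation p = 0.0312, the smallest 6 pairs allow, adjusted p = 0.0938). In that setting the ratio could not pass the threshold after adjustment. Other pairings could give fewer lower pairs, since colesevelam library 1 lay above vehicle libraries 3 and 6. The block changed no other call of an arm or ratio.

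Leaving out 1 library gave 7 to 12 calls for colesevelam against vehicle. For vehicle against lean it gave −0.402 to 0.0257 for miR-122-5p, −0.449 to 0.142 for the log2 arm ratio and −0.305 to 0.167 for the log2 share of both arms. For colesevelam against lean it gave −0.0482 to 0.373 for miR-122-5p and −0.0880 to 0.385 for the share. For miR-122-3p in colesevelam against vehicle it gave −0.687 to −0.429. No other setting tried changed a direction or a call of an arm or of the ratio.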
